A study of Mus musculus with 6 samples.

Results

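Most of the genes described here mark the cells of brain blood vessels. All were chosen by symbol, with no measured value in the rule. They comprise 18 genes of endothelial cells and the blood-brain barrier, 13 genes of mural cells and the 2 vascular ligand genes Vegfa and Angpt1, 33 of the 55414 genes in the table. Tjp1, Ocln and Slc16a1 were placed in the endothelial class but not listed as cell type markers. Vegfa and Angpt1 were not listed as markers either. The share of other cells in the values of these genes was not tested. Each symbol matched exactly 1 row. RNA was sequenced from 6 samples of mouse hippocampus, 3 from mice treated with CerM and 3 from mice treated with vehicle. Strain, genotype, sex, age, dose, route and duration are not given in the sources used here, and CerM is not spelled out. The series title ties the work to ceramides, gut bacteria and depression after corticosterone. The titles call the samples biological replicates without naming the mice. Each p-value sets the difference between the groups against the scatter of these samples, and whether each sample is a separate mouse is not given.

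Capillaries of the brain are lined by endothelial cells sealed to one another by tight junctions, which block passage between cells, while transporters in their membranes carry nutrients in and drugs out. Mural cells wrap this tube: pericytes sit on capillaries, and contractile smooth muscle cells surround arterioles. Vascular endothelial growth factor acts on endothelial receptors to drive vessel growth and permeability, and angiopoietin 1 stabilises vessels through the receptor encoded by Tek.

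Values are TPM, a length-normalised measure of transcript abundance that corrects for the length of a gene's transcripts and for the size of the library, so levels can be set side by side between genes but sequencing depth is not retained. Some libraries held transcripts of neighbouring tissues. Summed TPM of 12 choroid plexus markers was 9412, 11069 and 15878 in CerM libraries 1 and 3 and vehicle library 3, against 257 to 314 in the other 3. The 11 adipocyte markers summed to 900.2 TPM in CerM library 3 and to between 3.86 and 5.07 elsewhere, where 2 to 5 of them were listed at 0. Cfd, an adipocyte-secreted protease, was at 409 TPM in that library and listed at 0 in the other 5. The 10 neocortex markers summed to 320.5 TPM in vehicle library 1 and to between 144 and 158 elsewhere, and the 10 hippocampal markers were lowest there, at 302 against 463 to 528 TPM.

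Endothelial and mural transcripts were detected in the tissue at widely differing levels. Their mean level over the 6 libraries ran from 0.87 TPM for Cnn1 to 119 TPM for Ly6c1. The endothelial genes together gave 409, 486 and 520 TPM in CerM libraries 1 to 3 and 436, 431 and 473 TPM in vehicle libraries 1 to 3. For the mural genes the sums were 150.1, 173 and 232 TPM in CerM and 155, 154.5 and 184 TPM in vehicle. The groups overlapped in both sums, and CerM library 3 had the highest of each. In bulk tissue, fewer cells of a type and less RNA per cell cannot be told apart.

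**Figure D1:**
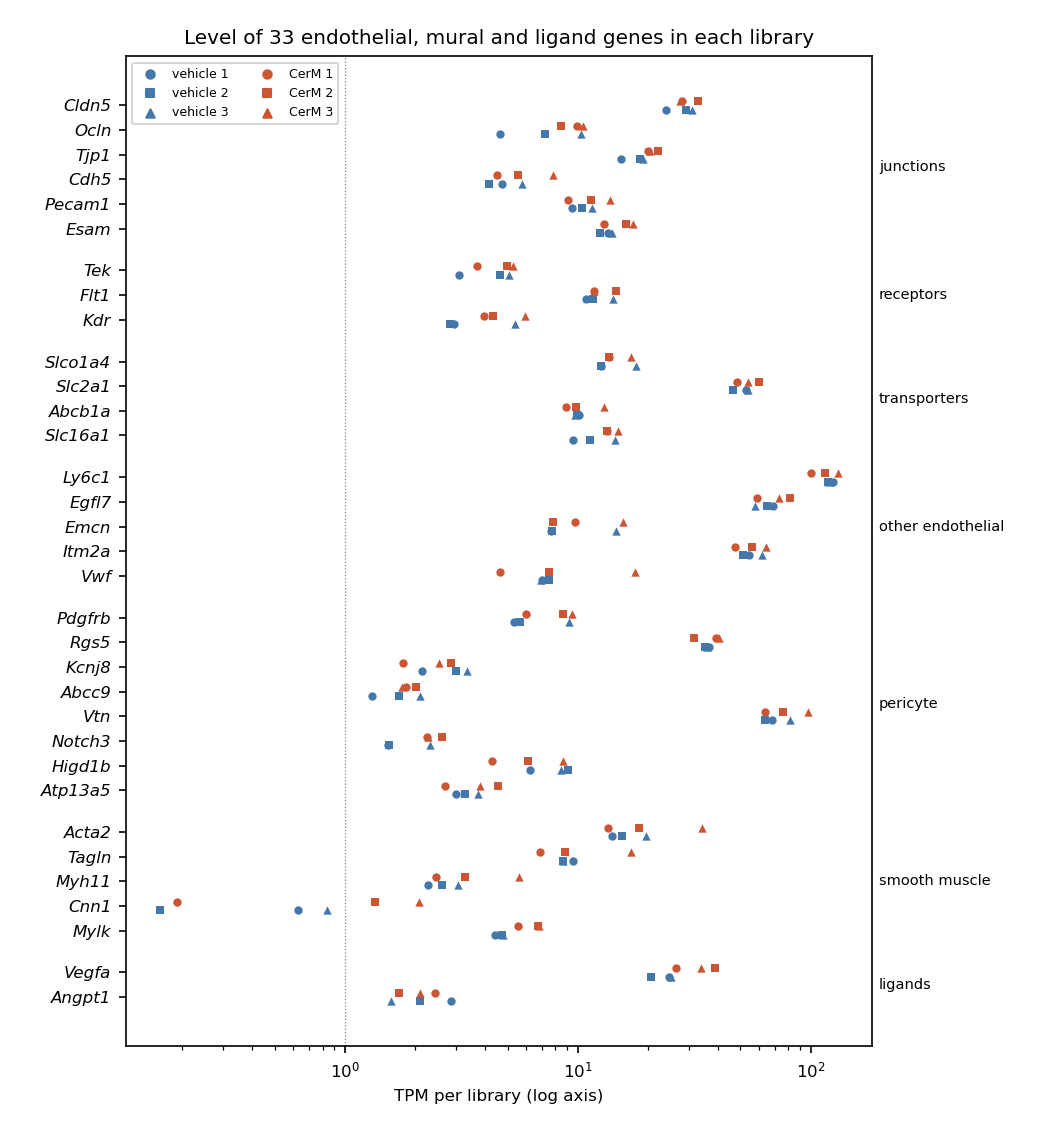
TPM of each of the 33 genes (log axis) in the 3 vehicle libraries (blue) and the 3 CerM libraries (orange), with the marker shape giving the replicate number and the dotted line the minimum of 1 TPM for testing. The orange triangle, CerM library 3, lies apart from the other 5 for Vwf, Acta2, Tagln and Myh11, and the 2 colours do not overlap for Tjp1, Mylk and Vegfa.

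None of the vascular genes was called different in CerM hippocampus. Of the 33 genes, 32 reached the mean of 1 TPM required for testing, and limma called 0 of them at an adjusted p below 0.05, as it called 0.0% of all 14916 tested genes. At an unadjusted p below 0.05 there were 2 members, Vegfa and Mylk, both higher in CerM, and none was lower. Over all tested genes the shares were 2.7% in either direction, 1.07% higher and 1.62% lower. The CerM and vehicle values did not overlap in 3 members, Vegfa, Mylk and Tjp1, all higher in CerM. Of all tested genes 7.3% did not overlap, 3.26% higher and 4.04% lower, and no member was lower in this way. Log2 fold changes of TPM + 1 lay above 0 for 27 of the 32 members (84.4%) and for 58.8% of all tested genes, with medians of 0.13 and 0.03. The 95% confidence interval excluded a 2-fold difference of TPM + 1 for 30 members and a 1.5-fold difference for 16. Acta2 and Vwf had intervals that reached beyond 2-fold.

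**Figure D2:**
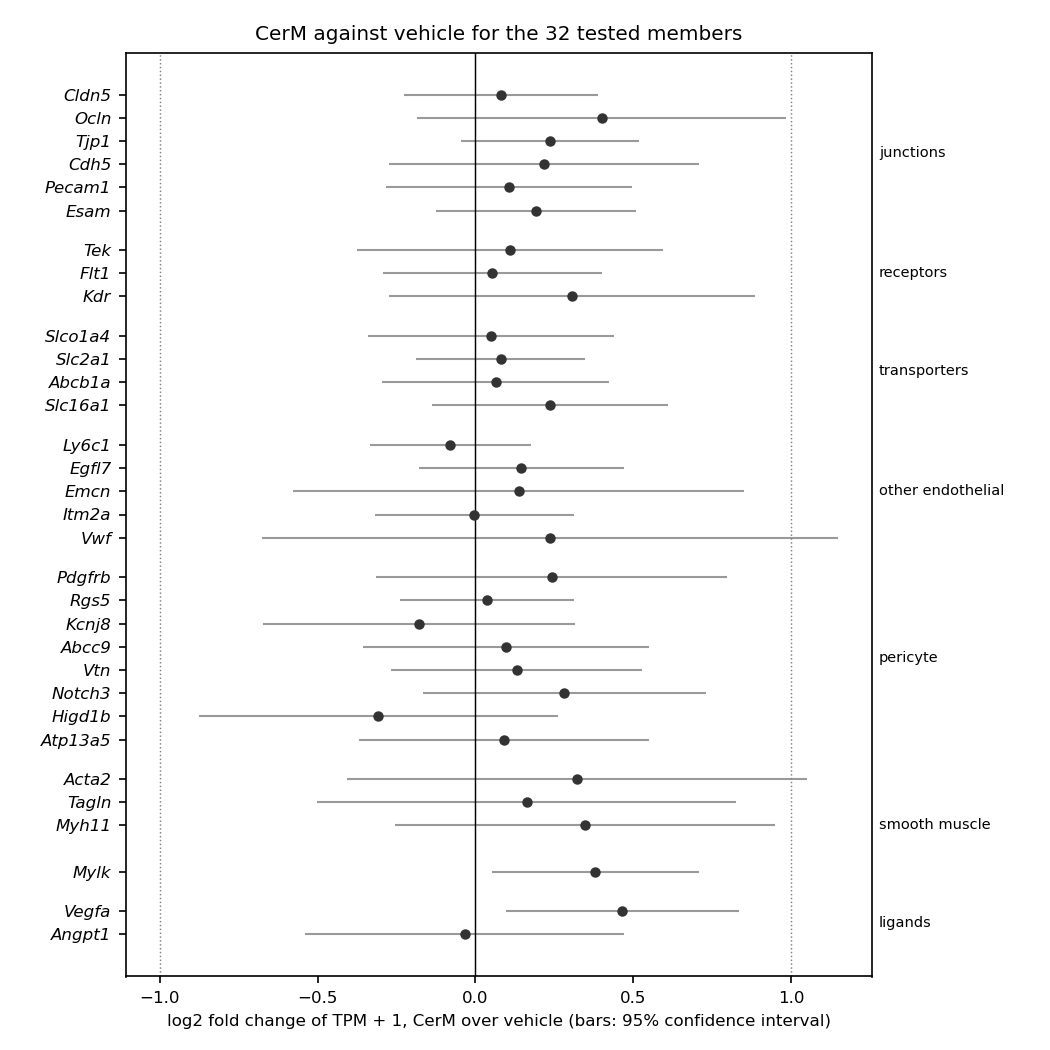
Log2 fold change of TPM + 1, CerM over vehicle, for the 32 tested members, ordered by role, with bars for the 95% confidence interval and dotted lines at a 2-fold difference. Intervals of Vegfa and Mylk exclude 0 before adjustment, those of Vwf and Acta2 are the widest shown, and no gene has an adjusted p below 0.05.

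The ligand gene Vegfa showed the smallest p among the members. It stood at 26.5, 38.8 and 33.9 TPM in CerM libraries 1 to 3 and at 24.6, 20.6 and 25.2 TPM in vehicle libraries 1 to 3. Every CerM library was above every vehicle library, but CerM library 1 exceeded vehicle library 3 by little. The means were 33.1 ± 6.18 and 23.5 ± 2.5 TPM (SD, n = 3 each), a ratio of 1.41. The log2 fold change was 0.47 ± 0.16 (SE), with an unadjusted p of 0.0202 and an adjusted p of 0.989 in limma. Over 18 other settings, the fold change ran from 0.345 to 0.611 and limma's adjusted p from 0.214 to 1.0. Angpt1, the ligand of the Tek receptor, was at 2.43, 1.70 and 2.09 TPM in CerM and 2.85, 2.09 and 1.58 TPM in vehicle, with fully mixed groups and a log2 fold change of −0.03 ± 0.22.

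The promoter of Vegfa is shown because this gene had the smallest p of the 33. The stretch covers the 250 bases before the more upstream of 2 annotated starts, chr17:46032378-46032627 on the minus strand of GRCm38.p6, from RefSeq, and capitals mark the GC box GGGCGG.
Vegfa: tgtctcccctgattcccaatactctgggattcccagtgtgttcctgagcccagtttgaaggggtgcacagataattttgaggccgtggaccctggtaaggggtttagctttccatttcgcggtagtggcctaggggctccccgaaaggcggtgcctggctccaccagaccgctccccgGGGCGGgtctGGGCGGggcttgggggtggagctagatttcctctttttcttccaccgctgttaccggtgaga
The word occurs 2 times, beginning 72 and 62 bases before the start. Searched on both strands, 2 or more copies were present in 16.7% of 32851 promoter windows of the same length.

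None of the 3 receptors of these ligands passed the test. Kdr, the main signalling receptor for the Vegfa protein, was at 3.94, 4.31 and 5.92 TPM in CerM and 2.94, 2.82 and 5.39 TPM in vehicle. Vehicle libraries 1 and 2 were the lowest of the 6, and vehicle library 3 lay between the CerM values. Its log2 fold change was 0.31 with a 95% confidence interval of −0.27 to 0.89. With 1 library left out it ran from 0.161 (without CerM library 3) to 0.545 (without vehicle library 3). Over 17 other settings it ran from 0.0519, without both CerM library 3 and vehicle library 1, to 0.628 with sample weights. Flt1, a receptor that also traps the ligand, was at 11.7, 14.6 and 11.7 TPM in CerM and 10.8, 11.6 and 14.1 TPM in vehicle (0.05, −0.29 to 0.40). Tek was at 3.68, 4.95 and 5.28 TPM in CerM and 3.09, 4.62 and 5.05 TPM in vehicle (0.11, −0.38 to 0.60). Both had overlapping groups, with vehicle library 1 the lowest.

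All 6 junction genes had a log2 fold change above 0, from 0.08 for Cldn5 to 0.40 for Ocln, and none passed the test. Of all tested genes 58.8% lay above 0. The count was 5 of 6 without vehicle library 1, and also without CerM library 3. Without both libraries the median was 0.05 in place of 0.20. Tjp1 encodes the scaffold ZO-1, which anchors tight junctions to actin. It stood at 19.9, 22.2 and 20.3 TPM in CerM and 15.3, 18.5 and 19.0 TPM in vehicle, with CerM library 1 only just above vehicle library 3. The fold change was 0.24 ± 0.12 (SE, unadjusted p of 0.0888 in limma), and it was 0.144 without vehicle library 1. Ocln, which encodes the tight junction protein occludin, was at 9.96, 8.49 and 10.6 TPM in CerM and 4.62, 7.24 and 10.3 TPM in vehicle. Vehicle library 1 was far below the rest. Without it the Ocln fold change was 0.14 in place of 0.40.

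Cldn5, which encodes claudin-5, the dominant tight junction strand protein of brain endothelium, differed little. Its values were 28.2, 32.9 and 27.4 TPM in CerM and 23.9, 29.1 and 30.8 TPM in vehicle, with groups that overlapped. The confidence interval of −0.23 to 0.39 for its log2 fold change excluded a 1.5-fold difference of TPM + 1. Cdh5, which encodes the adherens junction protein VE-cadherin, was at 5.94 ± 1.69 TPM in CerM and 4.89 ± 0.82 TPM in vehicle (SD, n = 3 each). Pecam1, an adhesion molecule at cell contacts, was at 11.4 ± 2.34 against 10.5 ± 1.05 TPM, and Esam, another such molecule, at 15.4 ± 2.23 against 13.3 ± 0.77 TPM. In these 3 genes CerM library 3 was the highest of the 6, at 7.79, 13.8 and 17.2 TPM.

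Transporter genes of the barrier overlapped between the groups, and none passed the test. Slc2a1, which encodes the glucose transporter GLUT1, had 48.2, 60.0 and 53.6 TPM in CerM and 52.7, 46.2 and 53.8 TPM in vehicle. Its log2 fold change of 0.08 had an interval of −0.19 to 0.35. Abcb1a, which encodes the drug efflux pump P-glycoprotein, had 8.86, 9.79 and 12.96 TPM in CerM and 10.1, 9.90 and 9.75 TPM in vehicle, so CerM held both the lowest and the highest value. How reads were shared between Abcb1a and its close relative Abcb1b is not given in the sources used here. Slc16a1, which encodes the monocarboxylate carrier MCT1, had 13.3, 13.4 and 14.9 TPM in CerM and 9.51, 11.3 and 14.4 TPM in vehicle, with a fold change of 0.24 (−0.14 to 0.61) that was 0.108 without vehicle library 1 and 0.383 without vehicle library 3. Slco1a4, an organic anion carrier, had 13.7, 13.6 and 16.9 TPM in CerM and 12.6, 12.6 and 17.7 TPM in vehicle.

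The remaining endothelial genes overlapped between the groups, and CerM library 3 was the highest for 4 of these 5. Vwf encodes von Willebrand factor, a clotting protein typical of larger vessels. It was at 4.63, 7.52 and 17.6 TPM in CerM and at 7.02, 7.53 and 6.97 TPM in vehicle. The vehicle values were within 1 TPM of each other, while CerM held the lowest and the highest library. Its log2 fold change was 0.24 (−0.67 to 1.15) with all libraries and −0.24 without CerM library 3. Emcn, which encodes the endothelial surface mucin endomucin, was at 9.75, 7.81 and 15.6 TPM in CerM and 7.64, 7.75 and 14.6 TPM in vehicle. Its 3 highest libraries were the same 3 that held choroid plexus transcripts.

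The most abundant member, Ly6c1, a surface protein of brain endothelium, had 101, 115 and 131 TPM in CerM and 125, 119 and 120.5 TPM in vehicle. Its log2 fold change of −0.08 (−0.34 to 0.18) was 1 of only 5 below 0 among the tested members, beside Itm2a, Kcnj8, Higd1b and Angpt1. How reads were divided with Ly6c2, a near copy, is not given in the sources used here. Itm2a, a membrane protein enriched in these vessels, averaged 56.0 ± 8.56 TPM in CerM and 55.9 ± 5.48 TPM in vehicle (SD, n = 3 each). Egfl7, a secreted endothelial protein, had 58.8, 81.8 and 72.8 TPM in CerM and 68.9, 65.1 and 57.6 TPM in vehicle, with a fold change of 0.14 ± 0.14 (SE). The Egfl7 value was 0.0388 without CerM library 2 and 0.274 without CerM library 1.

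Pericyte genes gave a mixed picture. Pdgfrb encodes the receptor that recruits pericytes to endothelium. It was at 5.96, 8.65 and 9.47 TPM in CerM and 5.33, 5.62 and 9.16 TPM in vehicle, with overlapping groups and a log2 fold change of 0.24 ± 0.24 (SE). Rgs5, a regulator of G protein signalling and a classic pericyte marker, was at 39.2, 31.5 and 40.5 TPM in CerM and 36.5, 35.1 and 35.9 TPM in vehicle. Its interval of −0.24 to 0.31 excluded a 1.5-fold difference of TPM + 1. Vtn, the most abundant mural gene, encodes the matrix protein vitronectin and was at 63.6, 75.9 and 97.5 TPM in CerM and 68.4, 63.7 and 81.9 TPM in vehicle.

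Kcnj8 and Abcc9 encode the pore and the regulatory subunit of the pericyte ATP-sensitive potassium channel. Kcnj8 was at 1.77, 2.84 and 2.53 TPM in CerM and 2.15, 2.99 and 3.33 TPM in vehicle, and its log2 fold change was −0.18 (−0.67 to 0.32). It was −0.042 without CerM library 1 and −0.312 without vehicle library 1. Abcc9 was at 1.83, 2.02 and 1.76 TPM in CerM and 1.30, 1.71 and 2.10 TPM in vehicle, at 0.10 (−0.36 to 0.55). The 2 subunit genes thus lay on opposite sides of 0, each with an interval that holds 0. With quantile scaling, Abcc9 was at −0.0018.

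Higd1b, a mitochondrial protein gene that marks pericytes in brain, had the lowest fold change of the 32. Its values were 4.29, 6.08 and 8.64 TPM in CerM and 6.23, 9.03 and 8.43 TPM in vehicle. CerM libraries 1 and 2 were the lowest of the 6, but CerM library 3 exceeded 2 vehicle libraries. The fold change was −0.31 ± 0.24 (SE, unadjusted p of 0.244 in limma). It was −0.53 without CerM library 3 and −0.09 without CerM library 1. Atp13a5, a P-type transport ATPase gene of brain pericytes, had 3.67 ± 0.93 against 3.33 ± 0.36 TPM (SD, n = 3 each). Notch3, the receptor that maintains mural cells, had 2.24, 2.61 and 2.28 TPM in CerM and 1.53, 1.54 and 2.32 TPM in vehicle, with a fold change of 0.28 (−0.17 to 0.73).

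None of the 4 tested smooth muscle genes passed the test, and 3 of them spread widely within the CerM group. Acta2, which encodes smooth muscle actin, was at 13.5, 18.3 and 34.3 TPM in CerM and 13.96, 15.4 and 19.6 TPM in vehicle. Tagln, an actin-binding protein gene, was at 6.86, 8.82 and 16.8 TPM in CerM and 9.55, 8.63 and 8.67 TPM in vehicle. Myh11, which encodes smooth muscle myosin heavy chain, was at 2.46, 3.29 and 5.60 TPM in CerM and 2.26, 2.61 and 3.05 TPM in vehicle. In all 3 genes CerM library 3 stood apart above the other 5, with 2.12, 1.98 and 2.05 times their mean. CerM library 1 was the lowest of all for Acta2 and Tagln.

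Cnn1, which encodes calponin, was below the minimum for testing, at 0.19, 1.35 and 2.07 TPM in CerM and 0.63, 0.16 and 0.84 TPM in vehicle. CerM library 3 was again the highest. Mylk encodes the kinase that triggers smooth muscle contraction. It differed from the other contractile genes in that all 3 CerM libraries, at 5.55, 6.76 and 6.79 TPM, lay above vehicle at 4.42, 4.72 and 4.79 TPM. The means were 6.37 ± 0.71 and 4.64 ± 0.20 TPM (SD, n = 3 each), a ratio of 1.37. Its log2 fold change was 0.38 ± 0.14 (SE, unadjusted p of 0.029 and adjusted p of 0.989 in limma), and over 18 other settings it ran from 0.295 to 0.463 with an adjusted p of 0.214 to 1.0. Mylk is also made outside smooth muscle, and its exons overlap opposite-strand transcripts.

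Without CerM library 3 the fold changes of the contractile genes moved. Acta2 went from 0.32 to −0.04, Tagln from 0.16 to −0.18 and Myh11 from 0.35 to 0.09, whereas Mylk went only from 0.38 to 0.34. The median over the 4 tested smooth muscle genes moved from 0.33 to 0.02. Because CerM library 3 was the highest for all 4, leaving it out could only lower their fold changes. Without CerM library 1 in its place, the median was 0.55 over 5 tested genes, and Acta2 was at 0.61. CerM library 3 also held the adipocyte transcripts given above. The part of these transcripts in the smooth muscle values was not tested.

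The 250 bases before the starts of 3 smooth muscle genes are shown because these are the smooth muscle members matched in the RefSeq promoter table, and CerM library 3 was the highest for each. They are from RefSeq on GRCm38.p6: Acta2 at chr19:34255374-34255623 on the minus strand, Cnn1 at chr9:22099003-22099252 on the plus strand and Mylk at chr16:34784700-34784949 on the plus strand. Capitals mark the CArG box, bound by serum response factor, allowing 1 of the 6 core letters to be G or C.
Acta2: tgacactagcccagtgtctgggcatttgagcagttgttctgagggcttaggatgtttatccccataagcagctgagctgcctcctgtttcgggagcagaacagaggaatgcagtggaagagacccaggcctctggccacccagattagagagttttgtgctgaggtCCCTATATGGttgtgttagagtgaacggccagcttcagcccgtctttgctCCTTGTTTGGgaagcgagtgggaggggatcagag
Cnn1: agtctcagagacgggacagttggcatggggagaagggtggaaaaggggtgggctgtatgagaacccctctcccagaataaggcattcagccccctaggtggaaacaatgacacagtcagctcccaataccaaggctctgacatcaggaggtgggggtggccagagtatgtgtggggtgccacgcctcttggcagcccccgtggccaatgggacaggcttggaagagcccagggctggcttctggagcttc
Mylk: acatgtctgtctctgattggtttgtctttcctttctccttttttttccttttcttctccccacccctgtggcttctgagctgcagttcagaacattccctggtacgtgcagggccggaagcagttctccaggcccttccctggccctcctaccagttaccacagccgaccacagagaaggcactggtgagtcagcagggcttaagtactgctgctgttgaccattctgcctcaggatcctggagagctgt
Acta2 holds 2 such words, beginning 84 and 34 bases before the start, CCCTATATGG and CCTTGTTTGG, and the other 2 windows hold none. Since the box reads the same way on both strands, one scan covers both. A single word or more was present in 8.59% of 32851 windows of that length and 2 or more in 0.67%. Of the 24 members with a RefSeq promoter, 5 held a word, the other 4 being the endothelial genes Egfl7, Kdr, Slco1a4 and Ocln. Egfl7 and Ocln had more than 1 window, so this count of genes cannot be set against the shares of windows. A match describes the letters only.

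CerM library 3 was the highest of the 6 for most vascular genes. Among the 32 tested members it held the top value for 19 (59.4%), 12 of 18 endothelial and 7 of 12 mural, against 1492 of all 14916 tested genes. Its ratio to the mean of the other 5 libraries had a median of 1.25 over the 33 members and 0.96 over all tested genes. The ratio was largest for Cnn1 (3.27, from values near the minimum), Vwf (2.61), Acta2, Myh11 and Tagln, followed by Emcn (1.64), Cdh5 (1.58) and Kdr (1.53). CerM library 1, in the same treatment group, was the lowest for 11 members (34.4%, against 20.2% of all tested genes) and the highest for 0 (against 7.85%). Vehicle library 1, with the highest neocortex marker sum, was the lowest for 13 (40.6%, against 32.8% of all tested genes).

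**Figure D3:**
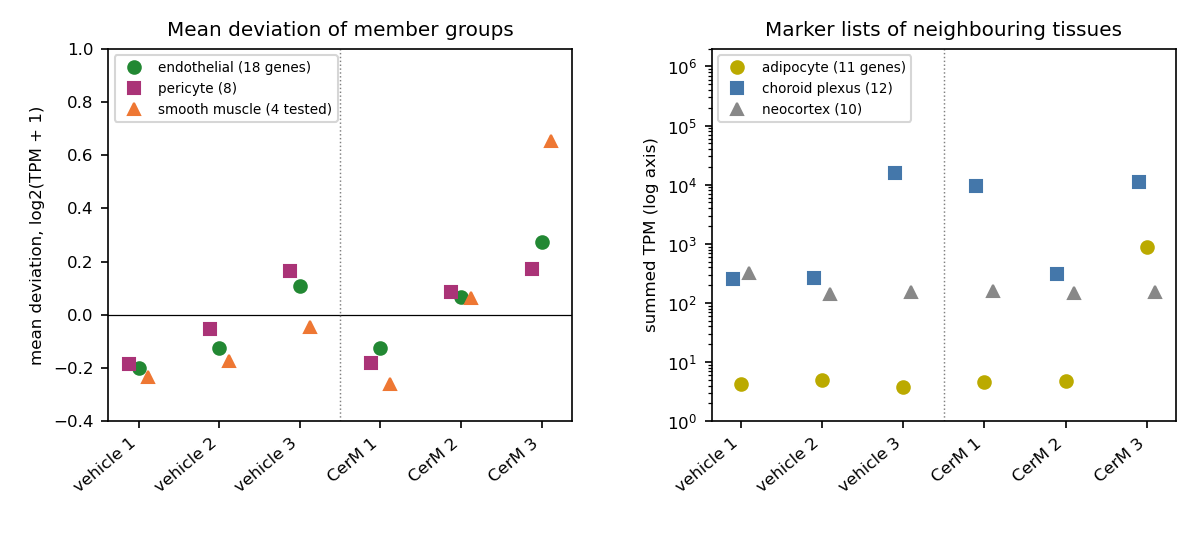
Left, the mean deviation of log2(TPM + 1) from each gene's mean over the 6 libraries, for the endothelial, pericyte and smooth muscle members; right, summed TPM (log axis) of adipocyte, choroid plexus and neocortex markers in the same libraries. CerM library 3 is highest on the left, at 0.65 for smooth muscle, and is the library with 900.2 TPM of adipocyte markers on the right.

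Endothelial and mural members followed each other across libraries. The mean deviation of log2(TPM + 1) from each gene's mean was −0.12, 0.07 and 0.27 for endothelial genes in CerM libraries 1 to 3 and −0.20, −0.12 and 0.11 in vehicle libraries 1 to 3. For the 12 tested mural genes it was −0.21, 0.08 and 0.33 in CerM and −0.20, −0.09 and 0.10 in vehicle. The order of the CerM libraries was the same in both classes, and the groups overlapped in both. Median log2 fold changes were 0.12 for endothelial and 0.15 for mural genes. Without CerM library 3 they were 0.06 and 0.02, and the count of members above 0 was 18 of 32 in place of 27. The difference between the classes was not tested.

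**Figure D4:**
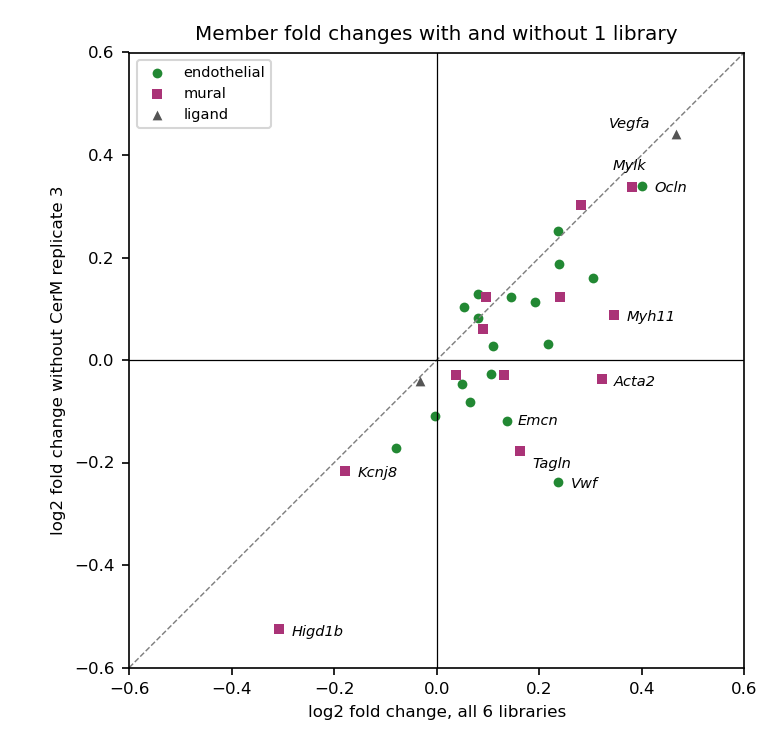
Log2 fold change of TPM + 1 for the 32 tested members with all 6 libraries (x axis) and without CerM library 3 (y axis), with the dashed line at equal values. Vegfa, Mylk and Ocln stay near the line, Acta2, Tagln, Vwf and Emcn cross below 0, and Higd1b moves from −0.31 to −0.53.

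Choroid plexus has fenestrated capillaries that lie outside the barrier, and its transcripts split the libraries across the treatment groups. In Emcn, Ocln and Slco1a4 all 3 libraries with plexus transcripts were above all 3 others, 3 of 32 members (9.38%) against 5.5% of tested genes. In 0 members were they all below, against 6.99% of tested genes. Both counts are of few genes. In Slco1a4 the separation was slight, with CerM library 1 at 13.67 TPM and CerM library 2 at 13.62 TPM. Neither difference in share from the tested genes was tested. With the choroid plexus marker score as a covariate, the log2 fold change of Emcn was −0.10 in place of 0.14, that of Slco1a4 was −0.05 in place of 0.05, and that of Ocln was 0.23 in place of 0.40. Beyond this covariate, the part of plexus tissue in these values was not tested.

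Further vascular genes from lists beyond the 33 were measured in the same fit. Of 48 tested genes of endothelium and barrier, limma called 0, 1 had an unadjusted p below 0.05 and 41 lay above 0 (median 0.13). Without CerM library 3 it was 32 of 47 (median 0.06), and without both that library and vehicle library 1 it was 22 of 47 (median −0.01). S1pr1, a sphingosine 1-phosphate receptor gene that endothelium shares with astrocytes, had the smallest p of that list. It stood at 68.3, 82.4 and 72.0 TPM in CerM and 61.8, 59.8 and 64.4 TPM in vehicle, without overlap (0.25 ± 0.10 SE, unadjusted p of 0.0381 in limma). Ets1, a transcription factor of endothelium, was at 0.32 ± 0.16, and Robo4, an endothelial guidance receptor, at 0.33 ± 0.20. Of 26 tested mural genes 0 were called by limma, 0 had an unadjusted p below 0.05 and 18 lay above 0 (median 0.12), which turned to 12 of 25 (median −0.02) without CerM library 3. Mcam, an adhesion molecule, was at 0.42 ± 0.25 and Ifitm1 at 0.53 ± 0.36.

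Signalling genes around the ligands and receptors were measured beside them. Of 38 tested genes of the VEGF, angiopoietin, PDGF, Notch, TGF-beta and Wnt pathways, 0 were called by limma, 1 had an unadjusted p below 0.05 and 31 lay above 0 (median 0.14). With 1 library left out, the count above 0 ran from 27 (without CerM library 2) to 34 (without CerM library 1), and was 30 without CerM library 3. It was 25 (median 0.05) without both CerM library 3 and vehicle library 1. Vehicle library 1 was the lowest for 21 of these genes (55.3%, against 32.8% of all tested genes). The 4 of these 38 genes whose groups did not overlap, all higher in CerM, were Hes1, Tgfb1, Lef1 and Jag1, the last 2 named after their values were seen. Of all tested genes, 3.26% did not overlap with CerM higher and 4.04% with CerM lower. Hes1, a Notch target, was at 12.3, 13.6 and 11.4 TPM in CerM and 9.32, 11.1 and 9.20 TPM in vehicle (0.31 ± 0.13 SE, unadjusted p of 0.0487 in limma). Tgfb1, a ligand that steers mural cells, was at 0.38 ± 0.18, and Adgra2, a coreceptor for barrier-inducing Wnt ligands, at 0.39 ± 0.20. Basement membrane genes, which encode the sheet shared by endothelium and pericytes, were above 0 in 11 of 12 (median 0.25), with Lama5 at 0.65 ± 0.36. Of all tested genes 58.8% lay above 0. The groups overlapped in each of the 12, and vehicle library 1 was the lowest for 7 of them (58.3%). Srf, the serum response factor gene, was at 0.17 ± 0.15, and all 3 tested genes of its list lay above 0, but 1 of 3 did so without CerM library 2 or with sample weights and 2 of 3 without vehicle library 1.

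Markers of other cells in the tissue give the setting of these values, and limma called 0 genes in each list, with 1 unadjusted p below 0.05, that of Fezf2. Perivascular and meningeal fibroblast genes had 10 of 12 above 0 and were highest in CerM library 3 for 10, with summed levels of 112 to 346 TPM in CerM and 108 to 333 TPM in vehicle. Col1a2 in that list was at 4.06, 2.82 and 7.78 TPM in CerM and 2.35, 1.74 and 4.94 TPM in vehicle. Summed blood cell markers ran from 953 to 1327 TPM in CerM and from 810.1 to 1288 TPM in vehicle, and 2 of 5 tested genes lay above 0 (median −0.02). Hba-a2, which has a near-identical copy, was at 0.14 ± 0.18 (SE). Astrocyte genes, whose cells also make Vegfa, summed to 1766 to 2230.2 TPM in CerM and 1719.9 to 1952 TPM in vehicle, with Gja1 at 0.28 ± 0.13. Neuronal genes summed to 4523 to 4838 against 4734 to 5379.8 TPM, with 4 of 8 above 0 (median 0.0032) and Snap25 at −0.23 ± 0.13. Oligodendrocyte genes lay above 0 in 7 of 7 (median 0.31, Mog 0.39 ± 0.20) with vehicle library 1 the lowest, at 3907 against 5999 to 7147 TPM. Microglial genes had a median of −0.00039, with Aif1 at −0.33 ± 0.16, and the 2 tested perivascular macrophage genes, Pf4 and Cbr2, were at 0.13 ± 0.33 and −0.05 ± 0.34, the second named after its value was seen. Cidec, the adipocyte gene with the smallest p, was at 0.95, 0.12 and 37.0 TPM in CerM and listed at 0 in vehicle. The genes with the smallest p in the remaining lists were Clic6 (choroid plexus, 1.39 ± 1.27), Dsp (hippocampus, 0.58 ± 0.43), Fezf2 (neocortex, −0.28 ± 0.12) and Acta1 (skeletal muscle, −0.30 ± 0.19).

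Counting could touch some of the values. Exons of 8 of the 33 members overlap those of another annotated gene in GENCODE vM21: Slc2a1, Abcb1a, Egfl7, Abcc9, Notch3, Tagln, Mylk and Angpt1. Whether reads were counted by strand is not given in the sources used here. Counting error behind each TPM is unknown, so precision rests on the 3 libraries per group.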

How the data were processed

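Hippocampal RNA of 6 mouse samples (3 CerM, 3 vehicle) was read from 1 table of TPM deposited by the authors, with 2 decimals and 55414 genes. TRIzol, DNase I and a TruSeq kit are named per the labels' protocols, and HISAT2, StringTie, RSEM and GRCm39, without versions or roles, per the submitters' processing notes. TPM totals were 993379 to 995403 per library. Groups and replicate numbers came from the sample titles. Genes with a mean of at least 1 TPM (14916) were tested with limma 3.58.1 in R 4.3.3 on log2(TPM + 1) with a variance trend, two-sided, with Benjamini-Hochberg adjustment over all tested genes and a threshold of 0.05. A log2 fold change on this scale understates that of low genes. The fit was tested on simulated data. Their noise was independent between genes, so they do not cover neighbouring tissue in a library. Figures and counts used Python 3.11.15 and matplotlib 3.10.9.

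The 33 members and the 17 further lists were chosen with earlier results of these data known. All members are named. Each further list is represented by its gene with the smallest p, and 3 lists by their first 3, except for 1 gene that is not reported here. Alternatives changed the pseudocount, minimum, scaling, variance model, weights, replicate block and the libraries used. Leaving out both CerM library 3 and vehicle library 1, and the choroid plexus covariate, were chosen after seeing the data. RefSeq promoters (GRCm38.p6) served for sequence only and were found for 24 members.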

Additional observations from a re-analysis of the deposited data

How the results depend on the processing

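Under 18 other settings limma called 0 of the members, and the smallest adjusted p of a member was 0.214, with sample weights. Of the 32 tested members, 14 kept the sign of their log2 fold change in every setting that tested them (17 for Kcnj8, Kdr, Myh11 and Notch3, which a minimum of 5 TPM left out, and 18 for the rest), Vegfa, Mylk and Tjp1 among them, and 18 changed it in 1 or more. The cause was not tested. With 1 library left out, or both CerM library 3 and vehicle library 1, the fold changes that crossed 0 ran as follows: Abcb1a −0.0817 to 0.169, Abcc9 −0.0153 to 0.2, Acta2 −0.137 to 0.606, Angpt1 −0.173 to 0.115, Atp13a5 −0.0408 to 0.252, Cldn5 −0.0249 to 0.153, Emcn −0.263 to 0.418, Flt1 −0.0464 to 0.157, Itm2a −0.128 to 0.109, Ly6c1 −0.172 to 0.014, Pdgfrb −0.00102 to 0.458, Pecam1 −0.0918 to 0.247, Rgs5 −0.0289 to 0.148, Slco1a4 −0.124 to 0.204, Tagln −0.178 to 0.413, Tek −0.144 to 0.239, Vtn −0.0548 to 0.275, Vwf −0.252 to 0.623. Other settings turned Abcc9 (−0.00177 with quantile scaling), Itm2a (0.011 without mitochondrial DNA genes), Angpt1, Itm2a, Cldn5 and Ly6c1 (0.0205, 0.165, −0.0364 and 0.0188 with sample weights), and Angpt1, Rgs5, Slco1a4 and Emcn (0.00891, −0.00759, −0.055 and −0.0983 with the choroid plexus covariate). The ligand median was 0.466 at a minimum of 5 TPM, where only Vegfa remained. Over all settings the median was 0.0198 to 0.243 for endothelial and −0.00841 to 0.362 for mural genes. Over all tested genes, 1 to 8 were called with a library left out (8 without CerM library 3), none a member.

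With the replicate number as a block, 0 members were called and the medians were 0.124 (endothelial), 0.147 (mural) and 0.216 (ligands). Deviations of same-numbered samples correlated at 0.0083, 0.196 and 0.222 across genes. Vehicle libraries 2 and 3 each correlated best with the CerM library of their own number. Vehicle library 1 correlated best with CerM library 2 (0.0651). Vehicle library 3 and CerM library 3 both held choroid plexus transcripts. Whether same-numbered samples were paired is not given in the sources used here, so apart from this block they were fitted as unpaired. TPM retains no depth, so counting error could not be assessed.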
